A study of Mus musculus with 33 samples.

Results

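The genes of endothelial cells, pericytes, smooth muscle and fibroblasts described here numbered 9 and were followed in the developing mouse auditory brainstem. They were Slco1a4, Slc2a1, Flt1 and Ptprb of endothelium, Rgs5 and Vtn of pericytes, Acta2 and Tagln of smooth muscle, and Dcn of fibroblasts. Each was found by its symbol among probe sets that the platform annotation assigns to a single gene. The 9 genes, of 14857 genes named that way, had 10 probe sets. Rgs5 had 2, and the brighter one stands for the gene unless the other is named.

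The tissue was the MNTB, the medial nucleus of the trapezoid body, a relay in the sound localization circuit of the brainstem whose neurons receive the calyx of Held, a giant synapse that matures after birth. RNA of untreated wild-type mice was hybridised to arrays at postnatal day 0 (P0), P1, P2, P3 and P6 with 5 mice each, and at P4 and P14 with 4 mice each, 33 mice in all. The animals are given as FVB in their description and as FVN in their strain tag. No genotype or treatment differed between the ages, and no age is given as pooled. Tissue was dissected by needle, so it holds every cell type of the nucleus, vessels included. Every array is 1 mouse, numbered by litter, so p-values measure the spread between mice. Median log2 values of the arrays ran from 4.83 to 5.12, and arrays of mice of the same age correlated at 0.967 to 0.990. The array of P6 litter 4 had the lowest quality weight (0.271) in limma.

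Brain capillaries are lined by endothelial cells joined by tight junctions. Their transporters carry nutrients in and drugs out, which together is the blood-brain barrier. Pericytes are wrapped around capillaries within the basement membrane and help to induce the barrier, smooth muscle cells ring the arterioles and set their width, and fibroblasts lie in the meninges and around larger vessels. Vessel sprouting and remodelling in the rodent brain go on after birth.

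The promoters of Acta2 of smooth muscle and of Flt1 and Slc2a1 of endothelium are shown as examples of genes with their highest mean at P14. The other genes with a promoter at hand, Slco1a4, Rgs5 and Vtn, also had their highest mean at P14. They run from 250 bases before to 50 bases after the start of transcription in RefSeq's annotation of GRCm38.p6, 5′ to 3′ on the gene's strand. In Acta2 (chr19:34255324-34255623, minus strand) the capitals mark 2 near matches of the CArG box, the element bound by serum response factor in smooth muscle genes, each with a single G or C in its A and T core. In Flt1 (chr5:147725962-147726261, minus strand) they mark, in order, GGAAG (the core bound by ETS factors), the cAMP response element TGACGTCA, GGAAG again at 2 places, and TATAAA. In Slc2a1 (chr4:119108495-119108794, plus strand) they mark 2 copies of CCGCCC, the reverse complement of the GC box GGGCGG, on either side of the hypoxia response core ACGTG, then TATAAA beyond the start of transcription. The sequences follow by gene name.
Acta2: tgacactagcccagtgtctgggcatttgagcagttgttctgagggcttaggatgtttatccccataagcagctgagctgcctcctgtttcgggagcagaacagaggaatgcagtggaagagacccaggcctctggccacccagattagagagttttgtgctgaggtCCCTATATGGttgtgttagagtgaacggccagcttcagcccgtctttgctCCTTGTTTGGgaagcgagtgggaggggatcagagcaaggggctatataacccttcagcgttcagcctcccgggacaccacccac
Flt1: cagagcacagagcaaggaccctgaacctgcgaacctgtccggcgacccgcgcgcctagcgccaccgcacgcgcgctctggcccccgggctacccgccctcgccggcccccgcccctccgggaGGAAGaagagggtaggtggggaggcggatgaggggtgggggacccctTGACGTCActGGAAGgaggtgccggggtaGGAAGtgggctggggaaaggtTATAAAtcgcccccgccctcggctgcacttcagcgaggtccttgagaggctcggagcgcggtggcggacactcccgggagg
Slc2a1: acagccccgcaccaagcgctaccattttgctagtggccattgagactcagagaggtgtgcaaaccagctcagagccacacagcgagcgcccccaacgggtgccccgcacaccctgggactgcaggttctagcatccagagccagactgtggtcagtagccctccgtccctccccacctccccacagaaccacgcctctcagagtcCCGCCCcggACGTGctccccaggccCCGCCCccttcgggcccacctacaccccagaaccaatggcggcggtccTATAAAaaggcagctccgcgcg

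The boxes of Acta2 began 84 and 34 bases before the start, and a GGAAG that is not capitalised shared 1 base with the second. The capitalised GGAAG copies of Flt1 began at -128, -71 and -52, its TGACGTCA at -81 and its TATAAA at -31. In Slc2a1 the GC boxes began at -45 and -20, ACGTG at -36, and TATAAA lay after the start, at 29. Both strands were searched, and 6 of the 9 genes were in the promoter table; Ptprb, Tagln and Dcn are named only. An exact CArG box stood in 0 of the 6, against 1.6% of all 32851 promoters of that length, and the box with 1 G or C in 2 of the 6, Acta2 and Slco1a4, against 8.5%. TATAAA stood in 3 of the 6 against 13.6%, TGACGTCA in 1 against 1.8%, GGAAG in 4 against 71.4%, ACGTG in 1 against 19.6% and GGGCGG in 2 against 35.7%. A match of letters is a description of the sequence.

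From P6 to P14, 8 of the 9 genes rose and 0 fell, also at an unadjusted p under 0.05, while Tagln did not pass the test. Over the first week 3 rose (Slco1a4, Ptprb and Rgs5), 1 fell (Tagln) and 5 did not pass. All calls are limma's moderated test on the log2 values with an adjusted p under 0.05, Benjamini-Hochberg adjustment being made over all 16686 probe sets. Of all probe sets 15.7% rose from P6 to P14 and 5.14% fell, and 6.42% rose and 7.95% fell from P0 to P6. Which direction led in the first week depended on single mice and on weights. There were 1072 rises and 1327 falls with all mice, 1229 and 970 without P0 litter 3, 1196 and 905 without P6 litter 4, 1289 and 1053 without the 3 arrays of lowest weight, and 1532 and 1226 with array weights. The median change of the 9 genes from P6 to P14 was 1.29 on the log2 scale, against 0.05 for all probe sets. In 7 of the 8 genes that rose, every P14 mouse lay above every P6 mouse, as was so for 13.9% of all probe sets. The exception was Acta2.

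Across the 7 ages the F test called 8 of the 9 genes, all but Tagln (adjusted p = 0.102 in limma), against 28.5% of all probe sets. Tagln passed that test when P0 litter 3 (adjusted p = 0.0226) or P3 litter 2 (0.0499) was left out. In the 5 steps between neighbouring ages up to P6, limma called 0 of the 9 genes, where 0.204%, 0.018%, 0.024%, 0.012% and 0.479% of all probe sets were called in turn from P0 to P6. That count stayed 0 when any 1 mouse was left out. At an unadjusted p under 0.05 there were 3 such steps, Slc2a1 from P2 to P3 and both Slco1a4 and Ptprb from P4 to P6. From P0 to P14, 8 of the 9 genes rose, against 20.7% of all probe sets. These comparisons share the P0, P6 and P14 mice.

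The share of higher calls depended on the scaling of the arrays. Rises made up 75.4% of all calls from P6 to P14, against 51.2% after quantile normalization and 57.8% after each array was centred on its median. From P0 to P14 the shares were 62.9%, 47.1% and 47%. The median change of all probe sets from P6 to P14 was 0.05 as deposited and -0.06 in the centred values, and from P0 to P14 it was 0.03 and -0.09. All 8 genes stayed called as higher from P6 to P14, and from P0 to P14, under both scalings.

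Cells other than those of the vessel wall also gave higher marker levels at P14. Of the measured oligodendrocyte markers 11 of 11 rose from P6 to P14, of microglia markers 10 of 11, and of astrocyte markers 7 of 11 with 1 fallen, a call lost without any 1 of P6 litters 1, 2, 3 and 5 and P14 litters 1, 3 and 5 and when only those ages were fitted. In that list 2 fell under either scaling, with array weights, with the litter number as a block in the fit, without the 3 arrays of lowest weight and without P6 litter 4. The mean level of the oligodendrocyte list was 6.89 to 7.61 in the P6 mice and 10.004 to 10.278 in the P14 mice, that of microglia 5.40 to 5.60 and 6.23 to 6.57, and that of astrocytes 7.39 to 7.999 and 8.45 to 8.82. Neuron markers went both ways, with 6 risen and 4 fallen of 11. Of 4 measured red cell markers none changed between P6 and P14 in limma (0 at an unadjusted p under 0.05), 3 of the 4 were under the array median in every mouse of either age, and the list's mean level was 4.28 to 4.48 and 4.18 to 4.37. After quantile normalization, in centred values, with the litter block and without the 3 arrays of lowest weight, 1 of the 4 fell. Of ependymal and choroid plexus markers limma called 0 of 7 (1 at an unadjusted p under 0.05), and 1 rose with array weights, with litter as a random block and without P1 litter 4, P4 litter 2, P6 litter 3 or P14 litter 2. The part of the other cell types in the rises below was not tested. In whole tissue, fewer cells of a type and less RNA per cell cannot be told apart.

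**Figure D1:**
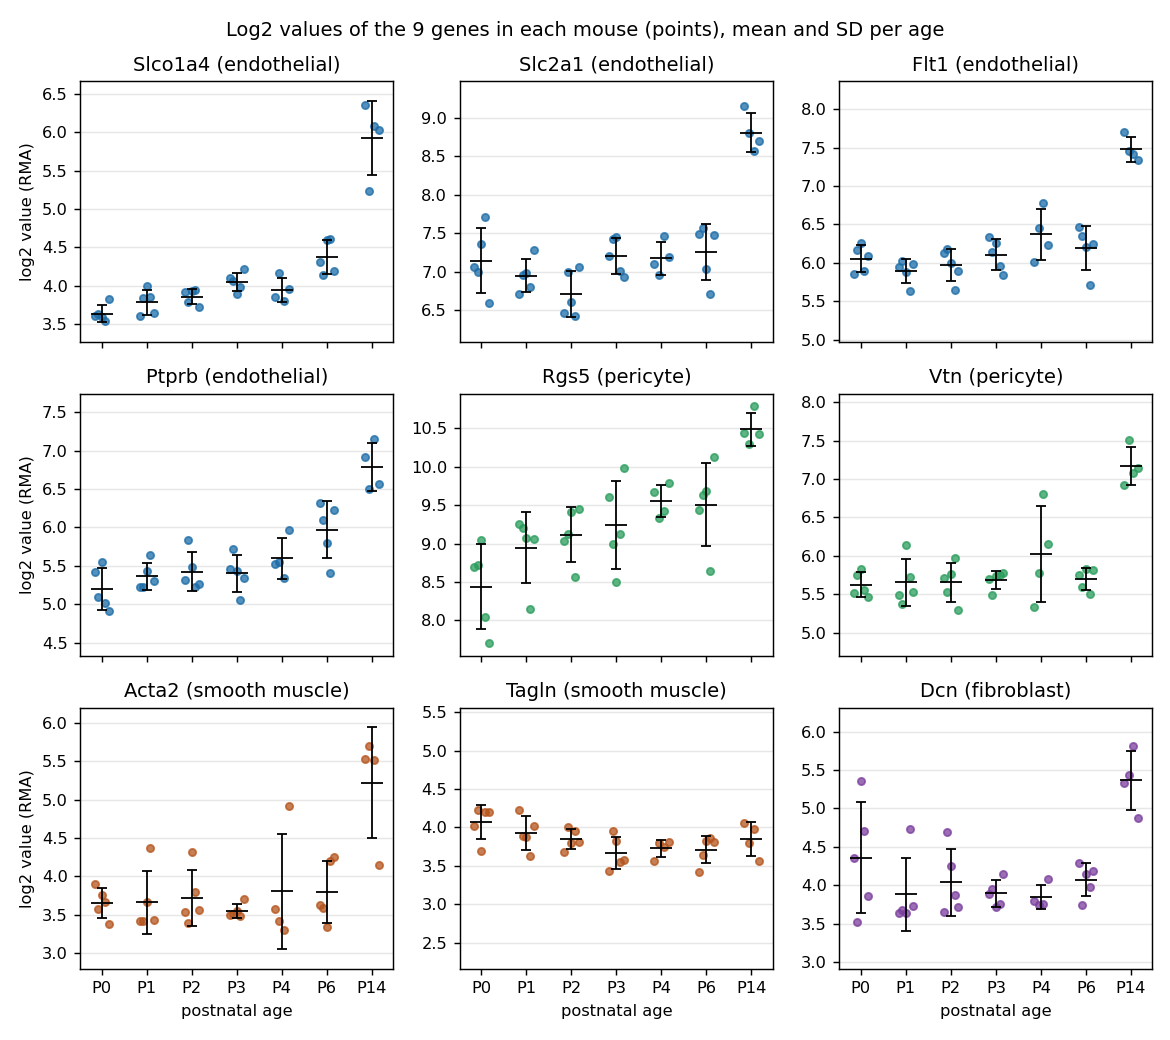
Deposited log2 value of the 9 genes (y axis) in each of the 33 mice (points) by postnatal age (x axis), with the mean and SD at each age (black bars); the panels start at different levels but span the same number of log2 units. In Slco1a4, Slc2a1, Flt1, Ptprb, Rgs5 and Vtn the 4 P14 mice lie above every younger mouse, and in Tagln the ages overlap, with P14 values of 4.05, 3.80, 3.98 and 3.57.

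Slco1a4 encodes an organic anion transporter of brain capillary endothelium that carries drugs, steroid conjugates and bile acids. It was the only 1 of the 9 genes whose P6 mice all lay above its P0 mice, as was so for 3.99% of all probe sets. The P0 mice had log2 values of 3.61, 3.63, 3.59, 3.54 and 3.83 in litters 1 to 5, and the P6 mice 4.31, 4.14, 4.60, 4.61 and 4.20. The P14 mice of litters 1, 2, 3 and 5 had 6.35, 5.24, 6.08 and 6.03, with litter 2 below the other 3. In between, the mice of P1 to P4 lay from 3.60 to 4.22. The change was 0.73 ± 0.14 (SE) from P0 to P6 (adjusted p = 0.000212 in limma) and 1.55 ± 0.14 from P6 to P14 (adjusted p = 1.01e-09). Slco1a4 was under the array median in every mouse up to P6 and above it in all 4 P14 mice, and since dim values are compressed on arrays, no fold is given. The means ran in the order P0, P1, P2, P4, P3, P6 and P14, and of the 6 neighbours in that order only P14 and P6 did not overlap.

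Slc2a1 encodes GLUT1, the glucose transporter of the barrier, which is also found in astrocytes. It rose from P6 to P14, and its first-week change did not pass the test. Its P0 mice had 7.06, 7.0, 7.36, 7.71 and 6.59, the P6 mice 7.48, 7.58, 7.03, 6.71 and 7.48 and the P14 mice 9.16, 8.80, 8.57 and 8.70. The P0 and P6 mice covered nearly the same range, and all P14 mice lay above them. The mice of P1 to P4 lay from 6.42 to 7.46, with the lowest mean at P2 (6.71 ± 0.30, SD, n = 5). In the order P2, P1, P0, P4, P3, P6 and P14, P6 and P14 were the neighbours without overlap. From P6 to P14 it rose by 1.55 ± 0.19 (SE), which is 2.93-fold (adjusted p = 3.06e-07 in limma), whereas the first-week change was 0.11 ± 0.18 (95% confidence interval -0.26 to 0.49, adjusted p = 0.79).

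Flt1 encodes VEGF receptor 1, which binds VEGF-A, VEGF-B and placental growth factor, and, with its weak kinase and its soluble form, acts largely as a trap for VEGF-A. It rose from P6 to P14, and its first-week change did not pass the test. In the P0 mice its log2 values were 5.85, 6.17, 6.26, 5.90 and 6.09, in the P6 mice 6.47, 6.34, 6.20, 5.71 and 6.25 and in the P14 mice 7.70, 7.46, 7.41 and 7.34. The P6 values surround the P0 values, and the P14 mice stood above both. From P1 to P4 the mice lay from 5.63 to 6.78. The means ran in the order P1, P2, P0, P3, P6, P4 and P14, and all neighbours but P4 (6.37 ± 0.33, SD, n = 4) and P14 overlapped. The rise from P6 to P14 was 1.28 ± 0.15 (SE), or 2.43-fold (adjusted p = 6.95e-08 in limma), and the first-week change was 0.14 ± 0.14 (adjusted p = 0.607).

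Ptprb encodes VE-PTP, an endothelial receptor phosphatase that removes phosphate from the angiopoietin receptor TIE2 and supports endothelial junctions. It rose in both weeks by about the same amount. The P0 mice had 5.42, 5.09, 5.55, 5.01 and 4.91, the P6 mice 6.32, 6.09, 5.79, 5.41 and 6.23 and the P14 mice 6.92, 6.50, 7.15 and 6.56. The P6 mouse of litter 4 lay within the P0 range, while the P14 mice did not overlap with any other age. The rises were 0.77 ± 0.17 (SE) over the first week (1.7-fold, adjusted p = 0.00151 in limma) and 0.82 ± 0.18 from P6 to P14 (1.76-fold, adjusted p = 0.000982). The mice of P1 to P4 lay from 5.05 to 5.97, and in the order P0, P1, P3, P2, P4, P6 and P14 all neighbours but the last pair overlapped.

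Rgs5 encodes a regulator of G protein signalling that is a standard marker of brain pericytes. It rose by about 1 log2 unit in each week. Its P0 mice had 8.69, 8.72, 9.05, 8.05 and 7.70, the P6 mice 9.44, 9.63, 9.68, 8.65 and 10.13 and the P14 mice 10.44, 10.30, 10.79 and 10.42. Litter 4 was the lowest P6 mouse and the one inside the P0 range. The mice of P1 to P4 lay from 8.14 to 9.99, and the means ran in the order P0, P1, P2, P3, P6, P4 and P14, with no overlap between P4 and P14 alone. The change was 1.07 ± 0.27 (SE) from P0 to P6 (adjusted p = 0.00633 in limma) and 0.98 ± 0.29 from P6 to P14 (adjusted p = 0.0132). The second call rested on single mice, since it was lost without P6 litter 4 (0.77, adjusted p = 0.059) and without P14 litter 3 (0.88, adjusted p = 0.0535). The other probe set gave the same directions, 0.62 ± 0.19 (adjusted p = 0.0207) and 1.20 ± 0.20 (adjusted p = 2.31e-05), with P14 values of 9.11, 7.77, 8.68 and 8.42.

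Vtn encodes vitronectin, an adhesive glycoprotein that binds integrins and is made by brain pericytes. It rose from P6 to P14, and its first-week change did not pass the test. The P0 mice had 5.52, 5.76, 5.83, 5.55 and 5.47, the P6 mice 5.75, 5.59, 5.83, 5.50 and 5.82 and the P14 mice 6.92, 7.51, 7.07 and 7.15. P0 and P6 mice shared a narrow range, and the lowest P14 mouse was above all mice of other ages. The widest spread was at P4, with 5.33, 5.78, 6.80 and 6.16 in litters 1, 2, 3 and 5, which was the age next to P14 in the order P0, P2, P1, P3, P6, P4 and P14. P4 and P14 were its only neighbours without overlap. Vtn rose by 1.47 ± 0.19 (SE) from P6 to P14 (2.76-fold, adjusted p = 5.47e-07 in limma), and the first-week change was 0.07 ± 0.18 (adjusted p = 0.868).

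Acta2 encodes smooth muscle alpha-actin, the contractile actin of arteriolar smooth muscle. It rose from P6 to P14, with 3 of the 4 P14 mice above every P6 mouse, and was dim before. The P0 mice had 3.90, 3.57, 3.76, 3.67 and 3.38, the P6 mice 3.63, 3.59, 3.34, 4.20 and 4.25 and the P14 mice 5.52, 5.70, 5.51 and 4.15. Litters 1, 2 and 3 at P14 were above every mouse of P0 and P6, and litter 5 lay inside the P6 range. At P4, litter by litter, the values were 3.58, 3.42, 3.30 and 4.92, so that 1 young mouse also stood high. In the order P3, P0, P1, P2, P6, P4 and P14 every pair of neighbours overlapped. The change was 1.42 ± 0.29 (SE) from P6 to P14 (adjusted p = 0.000407 in limma) and 0.14 ± 0.27 over the first week (adjusted p = 0.823). Acta2 was under the array median in every mouse up to P6 and in 1 of 4 at P14, so no fold is given.

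Tagln encodes transgelin, an actin-binding protein of smooth muscle that usually accompanies Acta2. It was under the array median in all 33 mice, where changes are compressed, and from P6 to P14 it did not pass the test. Its P0 mice had 4.02, 4.23, 3.70, 4.21 and 4.20, the P6 mice 3.43, 3.65, 3.82, 3.87 and 3.81 and the P14 mice 4.05, 3.80, 3.98 and 3.57. The ages overlapped, with the highest mean at P0 (4.07 ± 0.23, SD, n = 5) and the lowest at P3 (3.67 ± 0.21, n = 5), and in the order P3, P6, P4, P14, P2, P1 and P0 every pair of neighbours overlapped. It fell by 0.36 ± 0.12 (SE) over the first week (adjusted p = 0.0434 in limma), and its change from P6 to P14 was 0.14 ± 0.13 (95% confidence interval -0.13 to 0.40, adjusted p = 0.535). The first-week call was lost without any 1 of P0 litters 1, 2, 4 and 5 and P6 litters 1, 2, 3 and 5, with adjusted p from 0.0501 to 0.138.

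Dcn encodes decorin, a small proteoglycan that binds collagen fibrils and TGF-beta and is made by fibroblasts. It rose from P6 to P14. The P0 mice had 4.35, 3.52, 5.36, 4.71 and 3.85, the P6 mice 4.29, 3.75, 4.15, 3.97 and 4.19 and the P14 mice 5.33, 5.43, 5.82 and 4.87. P0 was the most scattered age, and its highest mouse lay among the P14 mice, whereas the P6 mice all lay below them. The mice of P1 to P4 lay from 3.63 to 4.73, and in the order P4, P1, P3, P2, P6, P0 and P14 every pair of neighbours overlapped. The change was 1.29 ± 0.27 (SE) from P6 to P14 (adjusted p = 0.000515 in limma) and 1.004 ± 0.27 from P0 to P14 (adjusted p = 0.00363), and -0.29 ± 0.25 over the first week (adjusted p = 0.546). Dcn was under the array median in 4 of 5 mice at P0, in all mice from P1 to P6 and in 1 of 4 at P14.

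Whether a gene changed more from P6 to P14 than from P0 to P6 was tested directly. The later interval is the longer, the changes were not scaled to days, and the P6 mice enter both changes. The P6 to P14 change exceeded the P0 to P6 change in 5 of the 9 genes, against 5.71% of all probe sets. The difference was 1.44 ± 0.32 (SE) for Slc2a1 (adjusted p = 0.00398 in limma), 1.14 ± 0.25 for Flt1 (adjusted p = 0.00263), 1.39 ± 0.32 for Vtn (adjusted p = 0.00431), 1.58 ± 0.45 for Dcn (adjusted p = 0.0232) and 0.82 ± 0.24 for Slco1a4 (adjusted p = 0.029). Slco1a4 and Acta2 in every mouse up to P6, and Dcn in 4 of 5 mice at P0 and in all at P6, were under the array median. Since dim values are compressed, the differences of these genes do not show whether they changed more after P6. Ptprb and Rgs5, which like Slco1a4 rose in both weeks, were not called. Their differences were 0.05 ± 0.30 (95% confidence interval -0.56 to 0.65) and -0.09 ± 0.48 (-1.07 to 0.90). The other Rgs5 probe set had a difference of 0.58 ± 0.33 (-0.09 to 1.25, adjusted p = 0.331 in limma). Dcn missed the threshold without P6 litter 2 (adjusted p = 0.0713), P6 litter 4 (0.0621) or P14 litter 3 (0.0542). Slco1a4 missed it under quantile normalization (0.0725), in centred values (0.0871) and without any 1 of P6 litters 1, 2 and 5 or P14 litters 1, 3 and 5 (0.051 to 0.0959). Acta2, not called with all mice (adjusted p = 0.106), was called without P14 litter 5 (1.64, adjusted p = 0.0152). Of all calls of this kind 71.2% were higher, against 50.1% under quantile normalization, 59.7% in centred values and 59.5% with array weights. The 953 higher calls also rested on single P6 mice, numbering 509 without litter 4 (53.4% of calls) and 630 without litter 3 (67%).

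**Figure D2:**
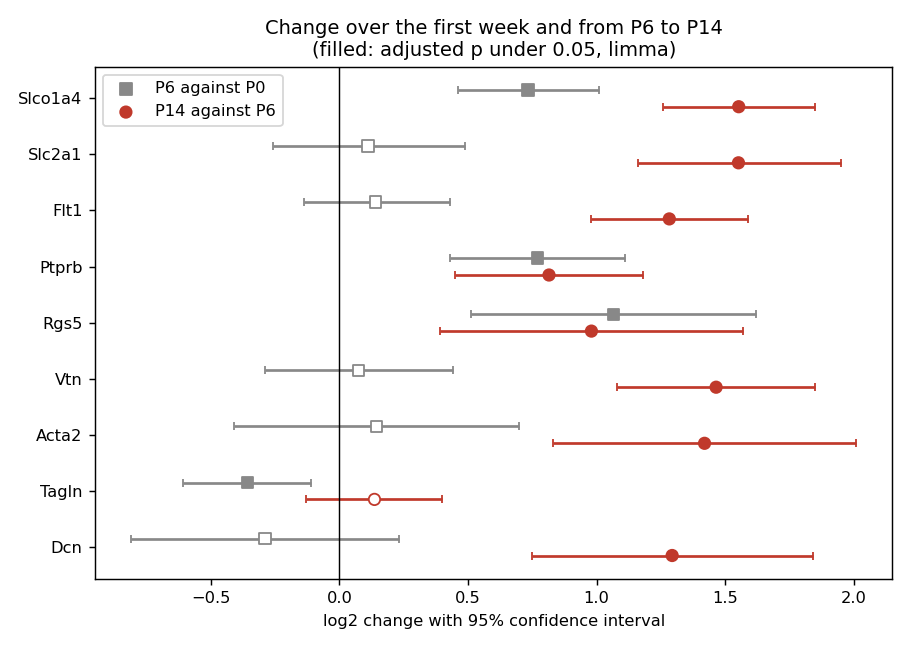
Log2 change (x axis) of each gene (y axis) from P0 to P6 (grey squares) and from P6 to P14 (red circles), with 95% confidence intervals from limma; filled symbols passed an adjusted p under 0.05. Slco1a4, Ptprb and Rgs5 lie to the right in both weeks, while Slc2a1, Flt1, Vtn, Acta2 and Dcn do so from P6 to P14.

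Unequal change of genes that serve the same cell was tested on the log2 difference of the 2 genes within each mouse, in 15 exact two-sided permutation tests over 5 pairs, where the smallest p the numbers of mice allow is 0.00794. Flt1 lost ground to Ptprb over the first week, the difference falling from 0.86 ± 0.30 at P0 to 0.23 ± 0.15 at P6 (SD, n = 5 each, exact p = 0.00794, adjusted p = 0.0397), with all P6 mice below all P0 mice. It was 0.69 ± 0.30 at P14 (n = 4), and the rise after P6 missed the threshold after adjustment (exact p = 0.0317, adjusted p = 0.0952). For Acta2 and Tagln the difference was 0.09 ± 0.37 at P6 and 1.37 ± 0.56 at P14 (n = 5 and 4, exact p = 0.00794, adjusted p = 0.0397), and it rose by 1.79 from P0 to P14 with the same p. Since Tagln in all mice, and Acta2 and Slco1a4 in every mouse up to P6, were under the array median, tests on pairs that hold them do not show whether the genes changed unequally. For Rgs5 and Vtn the difference rose by 0.99 over the first week (exact p = 0.0238, adjusted p = 0.0893; limma on the same differences gave 0.022). For both transporters, Slco1a4 and Slc2a1, it did not pass in any comparison (adjusted p from 0.184 to 0.992), nor for Rgs5 and Acta2 (0.119 to 0.449). Leaving out any 1 mouse of P0, P6 or P14, other than P6 litter 4, left 0 of the 15 tests called, since fewer tests can then reach the smallest p.

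Other genes of the vessel wall were described by 11 lists that together hold 132 measured genes, some in more than 1 list. From P6 to P14, 53 of them (40.2%) rose and 4 (3%) fell, against 15.7% and 5.14% of all probe sets, with a median change of 0.32. Without the 9 genes, 45 of 123 rose and 4 fell, with a median of 0.31. Over the first week 16 of 132 (12.1%) rose and 9 (6.8%) fell, against 6.42% and 7.95%. The counts of each list below include those of the 9 genes that it holds, and stand against the same shares of all probe sets. The levels of the other cell types given above moved over the same ages.

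**Figure D3:**
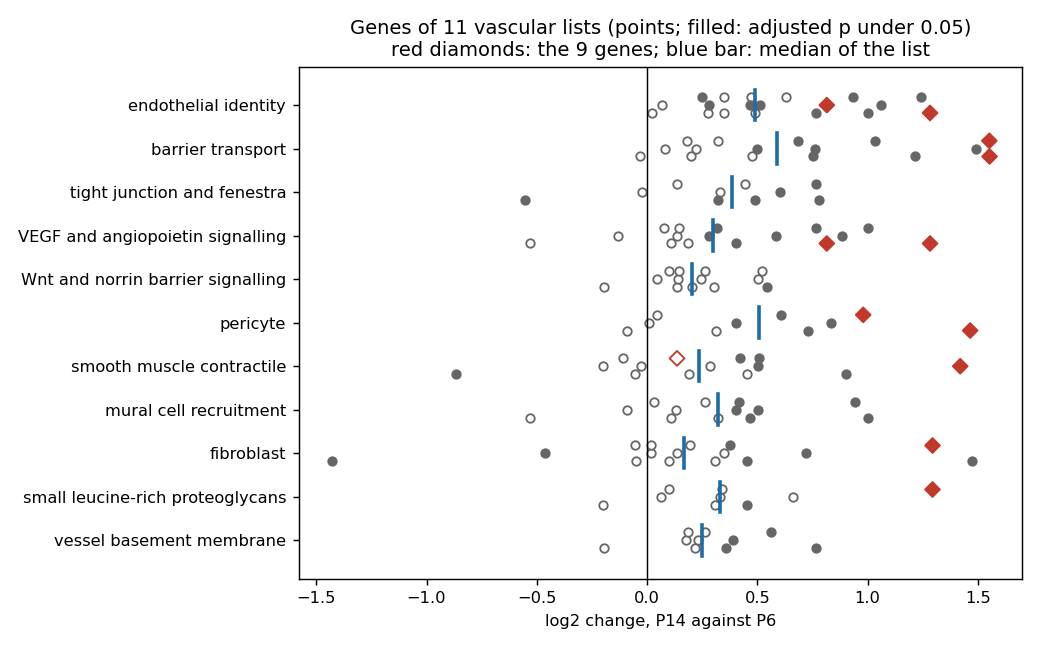
Log2 change from P6 to P14 (x axis) of every measured gene in the 11 vascular gene lists (y axis); each point is a gene, filled where limma's adjusted p was under 0.05, red diamonds are the 9 genes and blue bars the list medians. Among these lists the highest median is 0.59 in barrier transport and the lowest 0.17 in the fibroblast list, and of the 9 genes Tagln alone is open.

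Endothelial identity genes rose broadly after P6, and over the first week only Ptprb of 19 passed the test. Between P6 and P14, 11 of 19 rose and none fell (0 lower at an unadjusted p under 0.05), with a median of 0.49. Besides Flt1 and Ptprb, the largest rises were in Emcn, a sialomucin of capillary and venous endothelium (1.24 ± 0.36, SE, adjusted p = 0.0115 in limma), Cd34, a sialomucin of endothelium and progenitor cells (1.06 ± 0.23, adjusted p = 0.000683), and Tek, the angiopoietin receptor TIE2 (1.00 ± 0.22, adjusted p = 0.000779). Pecam1, the junction adhesion molecule CD31, rose by 0.93. Not every defining gene passed. Cdh5, which encodes VE-cadherin, changed by 0.63 (adjusted p = 0.0666) and Vwf, the von Willebrand factor gene, by 0.02 (0.868), both named after their values were seen. Of the 19 genes 6 were under the array median in every mouse at P6 and at P14.

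Barrier transport genes gave the largest median of the vascular lists, 0.59 from P6 to P14, with 9 of 16 risen and none fallen (0 lower at an unadjusted p under 0.05). After Slco1a4 and Slc2a1 came Mfsd2a, the lysolipid transporter of brain endothelium that holds back transcytosis (1.49 ± 0.20, SE, adjusted p = 9.69e-07 in limma), and Slc16a1, the lactate and ketone body carrier MCT1 (1.21 ± 0.26, adjusted p = 0.000902). Both had already risen over the first week, Slc16a1 by 1.26 and Mfsd2a by 0.93. Abcg2, the breast cancer resistance protein efflux pump, fell by 0.61 over that week, but the 3 falls in the list at that time (with Insr and Slc7a5, named after their values were seen) numbered 1 without P0 litter 1, without the 3 arrays of lowest weight and when only those ages were fitted, and 0 without P0 litter 3 or P6 litter 4.

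The list of tight junction genes, which also holds Cav1 and Plvap, moved less evenly. Of its 10 measured genes 5 rose from P6 to P14 and 1 fell, with a median of 0.39. The fall was in Cav1, which is not a tight junction gene. Tjp1, the scaffold ZO-1, rose by 0.77 ± 0.11 (SE, adjusted p = 5.24e-06 in limma), Cldn12, a claudin, by 0.78, and Jam2, a junction adhesion molecule, by 0.60. Cav1, the caveolae protein caveolin-1, fell by 0.55 (adjusted p = 0.0195). Cldn5, the main claudin of the barrier, changed by 0.44 (adjusted p = 0.0712), and Plvap, the diaphragm protein of leaky vessels, by 0.14 (adjusted p = 0.5); both were chosen after their values were seen. The count of rises was 2 under quantile normalization and without P14 litter 2, and 3 in centred values, when only those ages were fitted, without the 3 arrays of lowest weight and without P6 litter 4 or P14 litter 1 or 3. Cav1 was not called without P6 litter 1 or 3 or P14 litter 2 or 5.

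The ligands and receptors around Flt1 and Ptprb rose after P6 in part. In the VEGF and angiopoietin list 9 of 16 rose from P6 to P14 and none fell (1 lower at an unadjusted p under 0.05), and the median was 0.30. Pgf, placental growth factor, a ligand of Flt1, rose by 0.89 ± 0.18 (SE, adjusted p = 0.000475 in limma). Vegfa, which binds both VEGF receptors, rose by 0.32 (adjusted p = 0.037), and Kdr, the main signalling receptor VEGFR2, by 0.77 (adjusted p = 0.00586). Vegfb, another ligand of Flt1, changed by 0.11 (adjusted p = 0.674). For TIE2, the agonist Angpt1 rose by 1.02 over the first week (adjusted p = 0.00138) and changed by -0.53 from P6 to P14 (adjusted p = 0.114), while Angpt2, the context-dependent antagonist, rose by 0.40 from P6 to P14 (adjusted p = 0.0149). Without P14 litter 1, and in centred values, 5 of the 16 rose and 1 fell; 1 also fell with array weights, without the 3 arrays of lowest weight and without P6 litter 4.

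Wnt and norrin signalling induces barrier genes in brain endothelium. After P6 a single gene of 13 rose, a share below that of all probe sets, Lef1, a transcription factor of the pathway (0.54 ± 0.12, SE, adjusted p = 0.000898 in limma). The count was 4 with array weights, and 2 with the litter block and without any 1 of P0 litter 4, P3 litters 2 and 3, P4 litter 1, P6 litter 5 and P14 litter 2. From P0 to P14, 7 of the 13 rose and 2 fell, against 20.7% and 12.2% of all probe sets. The largest rises were in Fzd4, the norrin receptor (1.04), and Tspan12, its partner (0.77), and the falls were in Axin2, a feedback inhibitor and target of the pathway (-0.53), and Reck, a cofactor of Wnt7a signalling in brain endothelium (-0.46), both named after their values were seen. The count of falls was 0 without P0 litter 1 or P14 litter 1 or 3, and 1 without P0 litter 2, 3 or 5 or P14 litter 2 or 5. The ligand Wnt7a rose by 0.61 over the first week.

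The pericyte list holds Rgs5 and Vtn. After P6, 6 of its 10 genes rose, both of these among them. None fell (0 lower at an unadjusted p under 0.05), and the median was 0.51. Higd1b, a brain pericyte marker, rose by 0.84 (adjusted p = 0.0303 in limma), Atp13a5, another, by 0.73 ± 0.17 (SE, adjusted p = 0.00176), Abcc9, a subunit of the pericyte KATP channel, by 0.61 (adjusted p = 0.00364), and Pdgfrb, the PDGF-B receptor, by 0.41 (adjusted p = 0.00541). Its ligand gene Pdgfb, made by endothelial cells, changed by 0.03 (adjusted p = 0.913). Kcnj8, the partner of Abcc9 in that channel, changed by 0.04 and Cspg4, which encodes the proteoglycan NG2, by 0.01, both chosen after their values were seen. Of 13 genes of mural cell recruitment, 6 rose. S1pr1, the sphingosine-1-phosphate receptor, led them after Tek (0.94 ± 0.16, adjusted p = 4.53e-05). None of the 13 fell with all mice (1 lower at an unadjusted p under 0.05), and 1 fell in centred values, with array weights, without the 3 arrays of lowest weight and without P6 litter 4 or P14 litter 1.

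Smooth muscle contractile genes were mixed. After P6, 5 of 14 rose and 1 fell, with a median of 0.24. Tpm2, a tropomyosin, rose by 0.90 ± 0.27 (SE, adjusted p = 0.0134 in limma), and Myh11, the smooth muscle myosin heavy chain, by 0.51 (adjusted p = 0.00136). Mylk, the myosin light chain kinase, fell by 1.55 over the first week and by 0.87 from P6 to P14 (adjusted p = 0.00353). The count of rises was 3 under quantile normalization and without P14 litter 3. Of the 14 genes 7 were under the array median in every P14 mouse.

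Fibroblast genes changed in both directions, and the fibrillar collagens did not pass. After P6, 5 of 16 rose and 2 fell, with a median of 0.17. Mgp, matrix Gla protein, an inhibitor of calcification, rose by 1.47 ± 0.31 (SE, adjusted p = 0.000545 in limma), Igf2, a growth factor made in meninges and vessels, by 0.72, and Lum, the decorin relative lumican, by 0.46. Cemip, a hyaluronan-degrading protein, fell by 1.43 ± 0.15 (adjusted p = 2.08e-08) and Col6a3, a collagen VI chain, by 0.46. Col1a1 and Col1a2, the chains of collagen I and named after their values were seen, changed by -0.05 (adjusted p = 0.895) and 0.02 (0.942). Of the 16 genes 10 were under the array median in every P14 mouse. Among small leucine-rich proteoglycans, 2 of 9 rose, Dcn and Lum, and 1 of 9 did so without P6 litter 1, 2 or 3 or P14 litter 3, in centred values and when only those ages were fitted.

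Of 10 vessel basement membrane genes, 4 rose from P6 to P14 and none fell (0 lower at an unadjusted p under 0.05), with a median of 0.25. Sparc, a matrix glycoprotein also made by astrocytes, rose by 1.04 over the first week and by 0.76 ± 0.12 after P6 (SE, adjusted p = 1.07e-05 in limma). Lamc1, the laminin gamma-1 chain, rose by 0.56 (adjusted p = 0.00157), Nid1, nidogen-1, by 0.39, and Col4a1, a collagen IV chain, by 0.36. Under quantile normalization and in centred values 2 of the 10 rose.

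Mice of the same age were then compared with each other, to ask which of the 9 genes vary together once age is removed. Of 36 pairs, 1 passed after adjustment, Ptprb with Dcn (Pearson r = 0.59, permutation p = 0.00039, adjusted p = 0.014; Spearman rho = 0.55, adjusted p = 0.0562; 33 mice). Without the 2 mice farthest on Ptprb r was 0.58, and leaving out single mice gave 0.54 to 0.63. The count of called pairs was 0 without P0 litter 3 or P1 litter 4 and 2 without P0 litter 4, P2 litter 2 or P14 litter 1. P0 litter 3 and P1 litter 4 were the highest of their ages in Dcn, at 5.36 (P0 mean 4.36) and 4.73 (P1 mean 3.88). Their arrays had quality weights of 0.507 and 0.45. The 2 mice farthest on Dcn were not left out together. Dcn was also under the array median in 4 of 5 mice at P0 and in all from P1 to P6. Genes of 1 cell type did not pass as pairs after adjustment. The highest r among them was 0.49, for Slc2a1 with Flt1 (permutation p = 0.00856, adjusted p = 0.103). Slc2a1 with Ptprb had 0.40 (adjusted p = 0.357), and Slco1a4 had -0.14 with Flt1 and 0.03 with Ptprb. Rgs5 and Vtn had r of 0.01, Acta2 and Tagln 0.07, Flt1 and Ptprb 0.30 (adjusted p = 0.628), and both transporters -0.38 (rho = -0.53, permutation, adjusted p = 0.303 and 0.0562), with -0.71 without the 2 mice farthest on Slco1a4. All pairs share the 33 arrays.

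**Figure D4:**
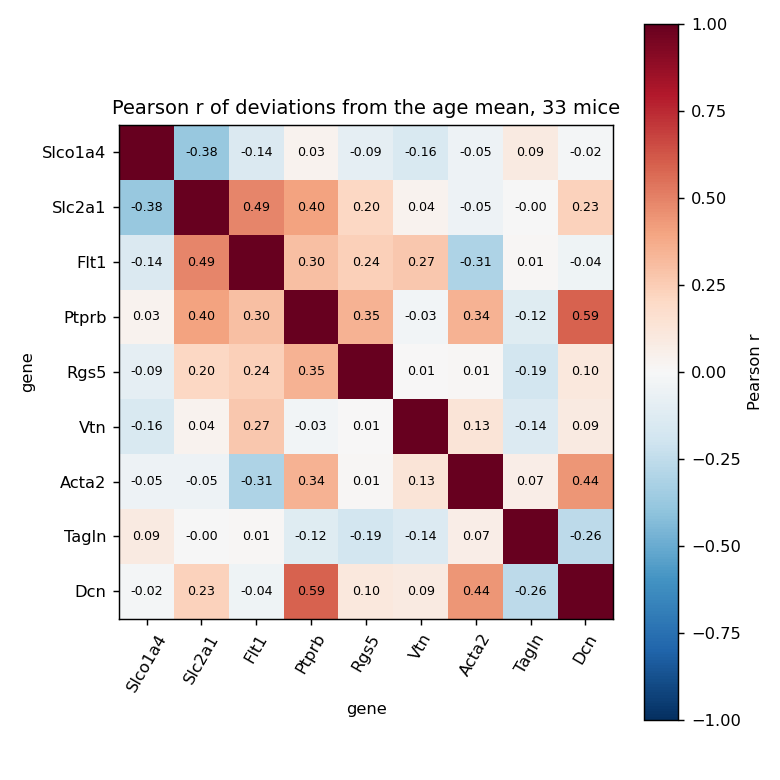
Pearson r between each pair of the 9 genes (both axes) over the 33 mice, after subtracting each gene's mean at each age; colour and number give r. Ptprb with Dcn, at 0.59, is the highest value off the diagonal, and Slco1a4 with Slc2a1, at -0.38, the lowest.

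The genes whose values were most like each of the 9 were ranked over the 33 arrays among 14408 named genes, as a description; all genes share the arrays and the ages. Slco1a4 was closest to Cyp2d22 (r = 0.96), Spsb1 (0.96) and Sorl1 (0.96), Slc2a1 to Aatk (0.92), Abca2 (0.92) and Pacs2 (0.92), and Flt1 to Dnm1 (0.95), Cers2 (0.94) and Abca2 (0.94). Ptprb was closest to Fbxo32 (0.93), Ebp (0.92) and Rell1 (0.92). For Rgs5 they were Ago3 (0.90), Car2 (0.89) and Idh3b (0.88), and for Vtn Gng11 (0.89), Sft2d2 (0.88) and Phlda3 (0.88). Of these, Aatk, Abca2, Cers2, Ebp and Car2 are genes also known from myelinating oligodendrocytes, whose markers rose over the same ages. The other genes named were not sorted by cell type, and a part of oligodendrocytes in these rankings was not tested. Acta2 was closest to Myh11 (0.87), Serpinf1 (0.85) and Capn11 (0.85). Dcn was closest to Ralgds (0.84), Tek (0.83) and Serpinf1 (0.82). Tagln had no gene above 0.63 (R3hdm4).

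With age removed the order changed for 8 of the 9 leading genes. Myh11 alone led for its gene in both rankings, with r of 0.74 to Acta2 over deviations from the age means. For the others the leading genes were Mb for Slco1a4 (0.75), Evi5l for Slc2a1 (0.79), Slc25a12 for Flt1 (0.88), Timp3, an inhibitor of matrix proteases, for Ptprb (0.75), Mad2l1 for Rgs5 (0.82), Atf7ip2 for Vtn (0.70), Cbr2 for Tagln (0.60) and Ints11 for Dcn (0.67). Each is the highest r among 14408 genes searched, and how high an r chance alone would give was not tested.

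Close relatives were checked because their probes could take up the same RNA. Actg2, the gamma-actin of smooth muscle, was not called in any of the 3 main comparisons, and Acta1, skeletal actin, fell by 0.77 from P0 to P14 (adjusted p = 0.00446 in limma) while Acta2 rose. Slco1a1, Slco1a5 and Slco1a6, neighbours of Slco1a4 in its family, were not called either. Tagln3, a neuronal relative of Tagln, fell by 0.52 over the first week (adjusted p = 0.0389) and rose by 0.65 from P6 to P14 (adjusted p = 0.0094), where Tagln changed by 0.14. The probe set of Tagln2 has several symbols and is not reported.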

How the data were processed

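Log2 expression values of 16686 probe sets on 33 arrays were deposited by the authors, made with Partek 6.3 and RMA on genome build mm9, per the submitters' processing notes. Small amounts of RNA were amplified before labelling, per the labels' protocols. RMA normalizes between arrays and summarises probes, so a level has no meaning between genes, and dim genes show too small a change. Arrays give no read depth, and the number of mice limits the precision.

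The annotation gives 14993 probe sets 1 symbol, 1019 several and 674 none; 14939 were matched by Entrez number to RefSeq's table of GRCm38.p6. The brightest probe set by mean log2 value stands for a gene. A mean per age was fitted to all 33 arrays with limma 3.58.1 (R 4.3.3) and no filter. Tests were two-sided, and p-values were adjusted by Benjamini-Hochberg over every probe set. Exact permutation tests and correlations (100000 shuffles within ages) used scipy 1.17.1. On simulated data for P14 against P6, limma called 86% of the probe sets shifted by 1 log2 and 47% of those shifted by 0.5 (200 shifted of 16686), with 4 false calls. The simulated noise was normal and independent between mice, and every shift was a rise at P14. These rates therefore need not hold for the deposited values.

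The 9 genes, the gene lists and the tests were chosen with earlier results of these data known. Beyond the 9 genes, the text names up to 4 genes per list and comparison with the largest called change, ligands and receptors of the 9, near relatives, and the 3 genes most like each in either ranking, of which the first is given once age is removed. The titles number the litters at each age and do not say whether a number is the same litter across ages. Deviations of same-numbered mice correlated at 0.092 on average (-0.321 to 0.646, 36 of 94 pairs over 0.1) and those of other numbers at -0.022 (58 of 372 over 0.1). Since the titles leave the meaning of a number open, the litter block was kept as an alternative. The main fit and the shuffles within ages therefore do not take up what same-numbered mice share. Alternatives were quantile normalization, centring, array weights, a filter on dim probe sets, an intensity trend, litter as a block, only the ages compared, and leaving out single mice or the 3 arrays of lowest weight.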

Additional observations from a re-analysis of the deposited data

Results flagged for a closer look

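Of 70 groups of 4 or 5 mice of an age, over the 10 probe sets, 8 held a mouse far from the rest by Dixon's test, which chance alone flags in about 5% of groups. Acta2 had 3 of them. At P14 litter 5 was lowest, at 4.15 where the nearest mouse had 5.51. At P1 litter 4 was highest, at 4.37 against 3.67, and at P3 litter 5 was highest, at 3.71 against 3.54. Dcn was highest in the same P1 mouse, litter 4, at 4.73 against 3.73, and at P4 in litter 5, at 4.09 against 3.80. That P1 mouse was also the lowest of its age in Rgs5, at 8.14 against 9.07. The dimmer Rgs5 probe set was lowest in P4 litter 1, at 6.97 against 7.19, and Vtn was lowest in P3 litter 2, at 5.48 against 5.70. The array of P1 litter 4 had a quality weight of 0.45, one of the 3 lowest beside P6 litter 4 (0.271) and P2 litter 4 (0.432).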

How the results depend on the processing

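Across 43 settings no called change of the 9 genes between ages changed sign. Changes that were not called did, such as the week difference of Rgs5 (-0.515 to 0.228 without single mice). The balance of all calls also turned in P6 against P0, and in P14 against P0 under either scaling, as given above. Dropping probe sets under the array median removed Slco1a4, Acta2, Tagln and Dcn, and so left 5 genes called across the ages, 2 in P6 against P0, 5 in P14 against P6, 5 in P14 against P0 and 3 in the second-week minus first-week difference, with 37 and 45 list genes called in P14 against P6 and P14 against P0 (57 and 74 with all probe sets). Leaving out single mice gave 3 to 5 genes in the week difference (3 without P6 litter 2 or P14 litter 3), 0 to 2 correlated pairs and 0 to 3 called ratios. Correlated pairs, 1 as reported, numbered 0 by Spearman, 2 without P14 and 4 without the 2 farthest mice. With the litter number as a replicate block, 4, 8 and 8 genes were called in P6 against P0, P14 against P6 and P14 against P0, and 32, 57 and 74 list genes (25, 57 and 74 without it), and it changed no call of the 9 genes. Of 33 mice 18 correlated best with their own number among the 5 litter numbers. Single-gene calls changed in 24 cases by loss and in 5 by gain, among them Dcn in P14 against P0 when only the ages compared were fitted (adjusted p = 0.0512). Tagln in P6 against P0 was lost in centred values (0.0693) and when only those ages were fitted (0.115). Its F test passed with array weights (0.0158) and without the 3 arrays of lowest weight (0.0455). Causes other than the smaller sets were not tested.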
